A study of Mus musculus with 14 samples.

Results

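The 10 genes of the Notch pathway described here were followed through mouse hind limb muscle with and without Myf6, at rest and after injury. They are the ligands Dll1, Dll4 and Jag1, the receptors Notch1, Notch2 and Notch3, the nuclear effector Rbpj, and the targets Hes1, Hey1 and Heyl. They were taken by name, by a rule that uses no measured value, with earlier results of these data known, and all 10 were found among the 49585 genes of the expression tables. With all libraries in the fit, none passed an adjusted p of 0.05 in any comparison of genotype or injury. Heyl was higher in every knockout library than in every wild-type library of the same injury state. Over all genes 21.7% were separated by genotype at rest and 16.9% after injury. When the uninjured and injured values of each animal were averaged, Notch2, Hes1 and Rbpj were lower and Dll4 was higher in knockout, with no overlap between the genotypes. Such a separation was seen for 22.3% of all genes, and the sizes for Rbpj and Dll4 depended on single animals.

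Myf6, also called MRF4, is a myogenic transcription factor that is abundant in mature muscle fibres. RNA was sequenced from 12 libraries in 4 groups of 3, namely uninjured wild-type (WT), uninjured Myf6 knockout (KO), injured WT and injured KO. Each number in the labels occurs once among the uninjured and once among the injured libraries of a genotype. It is read here as naming the animal, which gives 3 WT and 3 KO mice, so an injured library has an uninjured partner. The labels name neither the knockout allele, the strain and the age of the mice, nor how or when the muscle was injured. A peak list for Flag-tagged Myf6 came from primary myotubes grown from satellite cells, the stem cells of muscle, with 1 library and 1 control.

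Notch receptors are membrane proteins that are cut when a ligand on a neighbouring cell binds them. The freed intracellular part enters the nucleus and joins Rbpj, a DNA-binding protein that represses its targets without Notch and activates them with it. Hes and Hey proteins are among the best known targets, and are themselves repressors. In muscle, Notch signalling is known for keeping satellite cells quiescent, and in vessels Dll4, Notch1 and Notch3 act in endothelial and mural cells.

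Values are in RPM, a gene's reads scaled to the same total in every library. The libraries held 1880087 to 49392472 reads, and uninjured WT replicate 2 was the smallest. In it 3 reads correspond to 1.60 RPM, and Notch1, Dll1, Hey1, Heyl and Dll4 rested on 3 to 9 reads. Myf6 lay between 25.0 and 121 RPM in the WT libraries and between 1.86 and 3.46 RPM in the KO libraries, so the order of the groups follows the labels. Summed markers of muscle fibres lay between 153580 and 175710 RPM in uninjured WT and between 191870 and 240640 RPM in uninjured KO, without overlap, and the injured groups overlapped. Of the 10 fibre markers, limma called 0 at rest and DESeq2 called Ckm and Myh2, and their part in the values at rest below was not tested. Pairs of animals of different genotype have different numbers, so genotype cannot be told apart from litter or batch. In whole muscle, fewer cells of a type and less RNA per cell cannot be told apart either.

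3 libraries stood apart for these genes. Uninjured KO replicate 2 was the lowest of all 12 for Notch1, Notch2, Dll1 and Rbpj, and the highest for Hey1. Injured KO replicate 2 was the highest of all 12 for Notch3, Dll4, Jag1 and Heyl. Both carry the number of 1 animal. In the injured library of that animal, summed endothelial markers reached 1338 RPM against 381 to 700 RPM in the other 11, and summed Schwann cell markers reached 1758 RPM against 152 to 918 RPM. Uninjured WT replicate 2, the shallow library, was the lowest for Dll4 and Heyl. Many of the results that rest on these libraries are given with and without them.

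Promoter sequence is shown for Rbpj, Notch2 and Dll1, because their levels correlated most closely of the genes for which a sequence was at hand and all had a lower mean in uninjured KO muscle. That choice rests on uninjured KO replicate 2, since without it the 3 correlations were 0.62, 0.52 and 0.40 and that of Notch2 with Jag1 was 0.78. Each is the 250 bases before a RefSeq gene start in GRCm38.p6, read 5′ to 3′ on the gene's strand. Rbpj lies at chr5:53590096-53590345 on the plus strand, Notch2 at chr3:98013288-98013537 on the plus strand and Dll1 at chr17:15376933-15377182 on the minus strand. The Rbpj start used there is inside the annotated span of the gene, chr5:53555779-53657445, which begins further upstream. Capitals mark TGGGAA, the core of the site that Rbpj binds, on either strand, and CANNTG, the E-box bound by myogenic factors and by Hes and Hey proteins.
Rbpj: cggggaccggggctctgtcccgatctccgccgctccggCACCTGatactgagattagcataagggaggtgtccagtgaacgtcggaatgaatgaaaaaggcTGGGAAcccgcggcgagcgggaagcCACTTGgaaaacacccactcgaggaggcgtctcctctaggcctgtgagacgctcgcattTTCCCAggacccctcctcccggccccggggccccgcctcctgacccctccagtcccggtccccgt
Notch2: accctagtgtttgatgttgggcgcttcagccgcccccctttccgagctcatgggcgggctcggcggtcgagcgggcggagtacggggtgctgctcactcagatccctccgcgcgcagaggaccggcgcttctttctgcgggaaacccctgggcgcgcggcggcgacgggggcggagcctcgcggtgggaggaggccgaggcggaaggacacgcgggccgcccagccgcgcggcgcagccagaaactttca
Dll1: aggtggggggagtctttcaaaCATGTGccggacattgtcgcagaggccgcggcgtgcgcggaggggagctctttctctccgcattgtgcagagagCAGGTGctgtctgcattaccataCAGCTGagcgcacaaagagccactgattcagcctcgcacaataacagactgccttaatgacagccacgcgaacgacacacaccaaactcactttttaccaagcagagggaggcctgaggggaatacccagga

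The Rbpj promoter held TGGGAA at positions -149 and -65, counted from the gene start on the gene's strand, the second of them on the opposite strand. It also held E-boxes at -212 and -124. The Dll1 promoter held 3 E-boxes, at -229, -155 and -132, and the Notch2 promoter held neither motif. Of the 10 genes, 7 had at least 1 promoter window in the RefSeq table, with 9 windows in all. TGGGAA occurred in 2 of these 9, both of Rbpj and overlapping each other, and in 21.6% of all 32851 windows of the same length. The longer GTGGGAA occurred in 0 of the 9 and in 5.42% of all windows. CANNTG occurred in 4 of the 9 and in 66.2% of all windows. The CAGCTG form was found in windows of Jag1 and Dll1 (13.0% of all windows) and the CACCTG form, searched on both strands like the others, in windows of Rbpj and Dll1 (17.2% of all). The 9 windows were 56.0 to 72.0% G and C, against a median of 52.4% over all windows. None of the deposited Myf6 peaks overlapped any of them.

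Genotype at rest was the first comparison. Over the 10 genes the changes, KO minus WT on the log2(RPM + 1) scale, ran from -1.21 for Rbpj to 0.83 for Heyl, with a median of -0.22 against -0.18 over all 12460 genes tested. With limma 0 of the 10 had an adjusted p under 0.05, beside 0.281% of all genes. At an unadjusted p under 0.05 there were 2 of the 10, Heyl higher and Rbpj lower, beside 14.2% of all genes. EdgeR and DESeq2 on reads recovered from the values called 0 of the 10, beside 5.32% of all genes in DESeq2. In 4 of the 10 the KO and WT libraries did not overlap, with Heyl higher and Notch2, Jag1 and Rbpj lower, beside 21.7% of all genes. The scaling matters here, since the median over all genes was 0.04 with upper quartile scaling and 0.02 with TMM, a scaling by trimmed mean, and -0.32 when mitochondrial genes were left out of the total.

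Genotype after injury gave a narrower range, from -0.40 for Notch2 to 0.65 for Dll4, with a median of -0.06 against 0.01 over all 12625 genes tested. With limma 0 of the 10 had an adjusted p under 0.05, beside 0.269% of all genes. EdgeR and DESeq2 called 0 of the 10, beside 3.38% of all genes in DESeq2. None had an unadjusted p under 0.05 in limma, beside 10.3% of all genes. In 5 of the 10 the groups did not overlap, with Notch1, Dll4 and Heyl higher in KO and Dll1 and Hes1 lower, beside 16.9% of all genes. 1 library decided how many genes this comparison called. Without injured KO replicate 2, limma called 2343 of 12312 genes, and Notch2 was the only one of the 10 among them.

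With the mean of each animal's uninjured and injured log2 values as 1 replicate, 0 of the 10 passed the adjusted threshold in limma, beside 1.16% of all 13337 genes. 3 had an unadjusted p under 0.05, Heyl higher and Notch2 and Hes1 lower, beside 16.3% of all genes. The 3 KO and 3 WT animals did not overlap for 5 of the 10, with Dll4 and Heyl higher in KO and Notch2, Hes1 and Rbpj lower, beside 22.3% of all genes. The median change was -0.14, against -0.08 over all genes. Without KO animal 2 the change of Rbpj was -0.36 and not -0.69. That of Dll4, 0.62, was 0.47 without the same animal and 0.32 without WT animal 2. EdgeR and DESeq2 on the animals' summed reads also called 0 of the 10, beside 4.74% of all genes in DESeq2. At an unadjusted p under 0.05 there were 5 of the 10 in each tool. The share of all genes at that p was not counted for these tools, so the 5 cannot be set against it.

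**Figure D1:**
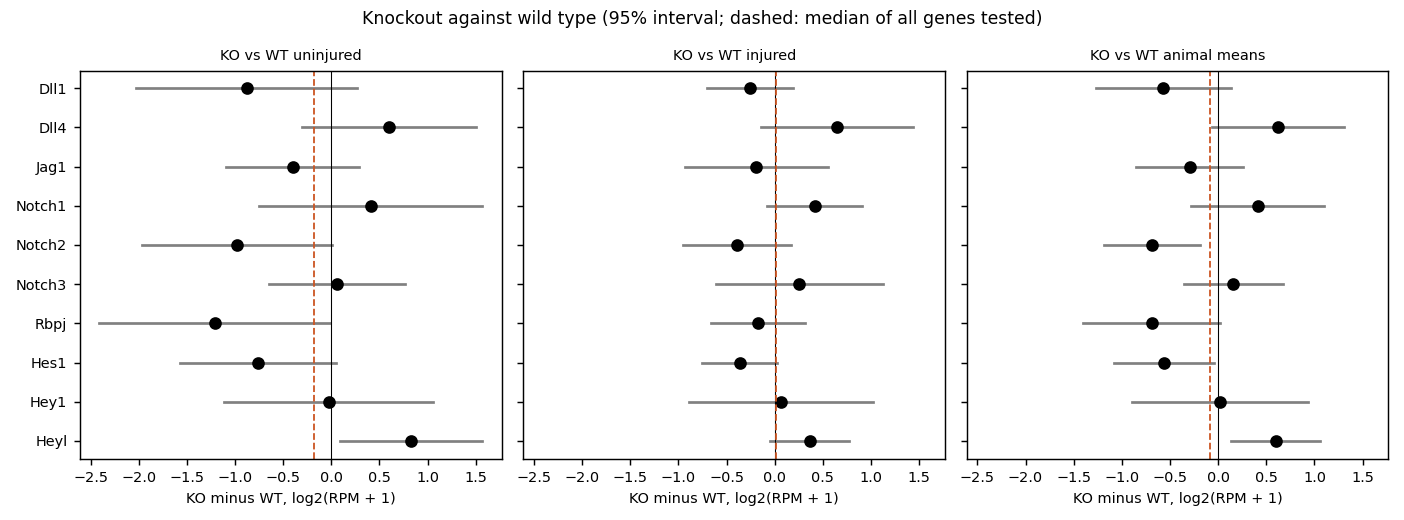
Difference between KO and WT for each of the 10 genes on the log2(RPM + 1) scale, in uninjured muscle, injured muscle and over animal means; points are limma estimates, bars 95% intervals and the dashed line the median of all genes tested. Heyl lies above 0 in all 3 panels, at 0.83, 0.36 and 0.60, and Notch2 below 0 at -0.98, -0.40 and -0.69.

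The ligands differed in direction. Dll1, a ligand made by differentiating myogenic cells, stood at 6.50, 2.66 and 10.2 RPM in uninjured WT and at 3.39, 1.26 and 4.0 RPM in uninjured KO. The injured WT libraries held 4.8, 3.59 and 4.67 RPM and the injured KO libraries 3.29, 3.49 and 3.58 RPM. The uninjured groups overlapped, since the shallow WT library lay below 2 of the KO libraries, while every injured KO library lay just below every injured WT library. The differences were -0.88 ± 0.51 at rest (SE, 3 against 3 libraries; limma adjusted p = 0.477) and -0.26 ± 0.19 after injury (limma adjusted p = 0.676). Without the shallow library the difference at rest was -1.32, and without uninjured KO replicate 2 it was -0.53.

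Dll4, the ligand of sprouting and arterial endothelium, stood at 13.9, 4.79 and 10.5 RPM in uninjured WT and at 16.0, 13.6 and 12.8 RPM in uninjured KO. Injured muscle gave 13.3, 8.80 and 14.9 RPM in the WT libraries and 15.0, 31.4 and 15.5 RPM in the KO libraries. All 3 injured KO libraries were above all 3 injured WT libraries, 2 of them by little. The differences were 0.60 ± 0.40 at rest (SE; limma adjusted p = 0.541) and 0.65 ± 0.33 after injury (limma adjusted p = 0.559). Without injured KO replicate 2, the library with the high endothelial sum, the second was 0.32, and without the shallow WT library the first was 0.21. Of the 16 endothelial markers, 13 had a higher mean in injured KO than in injured WT, with a median of 0.39 and 0 called in limma. Without injured KO replicate 2 this was 8 of 16, with a median of -0.019, and the part of this in the Dll4 values was not tested.

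Jag1, a ligand of many stromal and vascular cells, stood at 20.5, 14.4 and 15.1 RPM in uninjured WT and at 13.4, 12.6 and 10.8 RPM in uninjured KO, without overlap. In injured muscle the WT values were 17.4, 12.2 and 15.4 RPM, and the KO values 9.53, 21.1 and 10.5 RPM. Here 2 KO libraries lay below all WT libraries and replicate 2 lay above them all. The differences were -0.40 ± 0.30 at rest (SE; limma adjusted p = 0.594, 95% interval -1.09 to 0.28) and -0.19 ± 0.32 after injury (limma adjusted p = 0.873), the latter being -0.53 without that library.

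**Figure D2:**
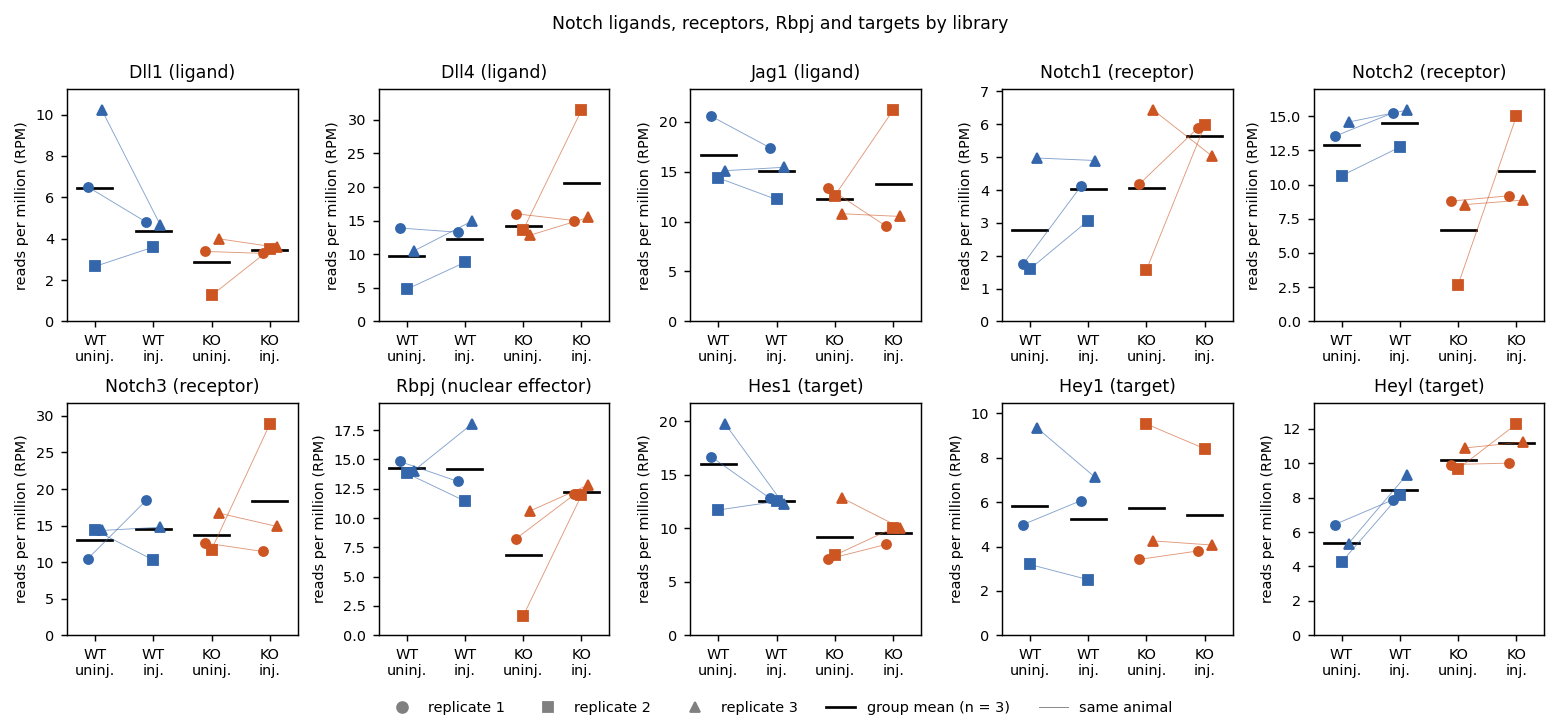
RPM of each gene in the 12 libraries, with WT in blue and KO in orange; a marker shape is a replicate number, thin lines join the libraries of 1 animal and bars are group means (n = 3). The KO libraries of Heyl, 9.68 to 12.3 RPM, lie above the WT libraries, 4.26 to 9.34 RPM, and uninjured KO replicate 2 lies far below the others for Rbpj at 1.65 RPM.

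Among the receptors, Notch2 differed most at rest and over animal means, and Notch1 by a like amount after injury. Notch2, which with Notch1 and Notch3 is expressed by satellite cells, stood at 13.5, 10.6 and 14.6 RPM in uninjured WT and at 8.79, 2.68 and 8.53 RPM in uninjured KO. The injured WT libraries held 15.2, 12.7 and 15.4 RPM and the injured KO libraries 9.18, 15.0 and 8.87 RPM. The uninjured groups did not overlap, and after injury 2 of the 3 KO libraries lay below all WT libraries. The differences were -0.98 ± 0.44 at rest (SE; limma adjusted p = 0.358) and -0.40 ± 0.24 after injury (limma adjusted p = 0.609).

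The animal means of Notch2 gave -0.69 ± 0.22 (SE, 3 against 3 animals; limma adjusted p = 0.178), or 0.621 times the WT level of RPM + 1, with a 95% interval of 0.438 to 0.880. Leaving out either library of KO animal 2 moved the values in opposite ways. Without the uninjured one the difference at rest was -0.51, and without the injured one the difference after injury was -0.62. The latter had an adjusted p of 0.0392 in limma, in a fit that called 19.0% of all genes. Over all alternatives that adjusted p after injury ran from 0.0392 to 0.99998. The other 4 KO libraries sat within 8.53 to 9.18 RPM in both injury states, below the 10.6 to 15.4 RPM of the WT libraries. This leaves out KO animal 2 after seeing its values, and its injured library, at 15.0 RPM, lay within the WT range. The share of all genes separated in this way was not counted.

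Notch1 stood at 1.74, 1.60 and 4.97 RPM in uninjured WT and at 4.18, 1.57 and 6.43 RPM in uninjured KO, with wide overlap. Injured muscle gave 4.13, 3.07 and 4.90 RPM in the WT libraries and 5.89, 5.98 and 5.04 RPM in the KO libraries, and all KO libraries lay above all WT libraries. The differences were 0.41 ± 0.51 at rest (SE; limma adjusted p = 0.768) and 0.41 ± 0.21 after injury (limma adjusted p = 0.556). The value of 1.60 RPM rests on 3 reads. At rest the difference was 0.19 without that library, 0.83 when uninjured KO replicate 2 was left out and 0.067 when replicate 3 of that group was. Reads of the overlapping genes 0610009E02Rik and Mir6996 cannot be told apart from those of Notch1, since the use of strand in counting is not stated. The same holds for Notch2 with Gm40103, Notch3 with Gm38585 and Gm41568, Dll4 with Gm14207 and Hey1 with LOC115489673.

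Notch3, the receptor of mural cells and of satellite cells, stood at 10.5, 14.4 and 14.3 RPM in uninjured WT and at 12.6, 11.7 and 16.7 RPM in uninjured KO. Injured muscle gave 18.5, 10.3 and 14.8 RPM in the WT libraries and 11.5, 28.9 and 14.9 RPM in the KO libraries. The groups overlapped in both states. The differences were 0.06 ± 0.31 at rest (SE; 95% interval -0.65 to 0.77; limma adjusted p = 0.954) and 0.26 ± 0.37 after injury (95% interval -0.61 to 1.12; limma adjusted p = 0.846). The sign at rest turned to -0.086 when mitochondrial genes were left out of the total, and the sign after injury turned to -0.11 without injured KO replicate 2. Summed mural markers, Notch3 not counted, were 919 RPM in that library and 590 to 834 RPM in the other 11.

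Rbpj had the largest difference at rest on the RPM scale, while Heyl exceeded it with upper quartile and TMM scaling, in edgeR and DESeq2, and without uninjured KO replicate 2. It stood at 14.8, 13.8 and 14.0 RPM in uninjured WT and at 8.25, 1.65 and 10.6 RPM in uninjured KO. In injured muscle the WT values were 13.1, 11.5 and 18.03 RPM, and the KO values 12.02, 11.95 and 12.8 RPM. The WT libraries at rest were close together, the 3 KO libraries were all below them and far apart, and after injury the groups overlapped. The difference at rest was -1.21 ± 0.53 (SE; 95% interval -2.41 to -0.01; limma unadjusted p = 0.0485, adjusted p = 0.346), and after injury it was -0.17 ± 0.21 (limma adjusted p = 0.813). Without uninjured KO replicate 2 the difference at rest was -0.55, with an adjusted p of 0.399 in limma, in a range of 0.0990 to 0.983 over the alternatives. The difference after injury was -0.00037 without injured WT replicate 3. The low value of uninjured KO replicate 2 is 21 reads of Rbpj among 12704445 reads in all.

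The targets differed in direction too. Heyl, which is enriched in quiescent satellite cells and in mural cells, stood at 6.44, 4.26 and 5.34 RPM in uninjured WT and at 9.93, 9.68 and 10.9 RPM in uninjured KO. The injured WT libraries held 7.88, 8.16 and 9.34 RPM and the injured KO libraries 10.0, 12.3 and 11.2 RPM. All 6 KO libraries lay above all 6 WT libraries. The genotypes did not overlap for 21.7% of all genes at rest and 16.9% after injury. The share separated over both states was not counted. Means were 5.34 ± 1.09, 10.2 ± 0.64, 8.46 ± 0.77 and 11.2 ± 1.14 RPM (SD, n = 3 each) in uninjured WT, uninjured KO, injured WT and injured KO.

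The difference in Heyl was 0.83 ± 0.33 at rest (SE; 95% interval 0.10 to 1.56; limma unadjusted p = 0.0309, adjusted p = 0.292) and 0.36 ± 0.17 after injury (limma adjusted p = 0.540). Over animal means it was 0.60 ± 0.20, or 1.51 times the WT level of RPM + 1 (95% interval 1.1 to 2.08; limma adjusted p = 0.2013). Over the alternatives its adjusted p at rest ran from 0.0796 to 0.681. Leaving out each library in turn gave 0.70 to 0.95 at rest and 0.30 to 0.43 after injury. In the authors' deposited table Heyl had a log2 ratio of WT over KO of -1.14 (SE 0.42) at rest with a p of 0.00672 and a q of 0.337, the lowest q of the 10 genes. No gene of the 10 had a q under 0.05 in the authors' deposited tables, beside 1.43% of genes at rest and 0.893% after injury.

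Marker lists were set beside Heyl. Summed satellite cell markers, Heyl not counted, ranged from 56.9 to 81.1 RPM in uninjured WT and from 50.3 to 82.0 RPM in uninjured KO, and 2 of the 8 tested had a higher mean in KO. After injury the sums were 75.4 to 85.5 RPM in WT and 66.1 to 76.6 RPM in KO. Summed mural markers ranged from 590 to 834 RPM in uninjured WT and from 659 to 760 RPM in uninjured KO, and from 635 to 722 RPM and 697 to 919 RPM after injury. In both lists 0 genes were called by limma or edgeR with all libraries in the fit (DESeq2 called Mcam, of the mural list, over animals). Without injured KO replicate 2, limma called 2 of 8 satellite cell and 0 of 11 mural markers after injury, beside 19.0% of all genes. At an unadjusted p under 0.05 in limma, 4 of 11 mural markers were higher and 3 of 8 satellite cell markers lower in KO after injury, beside 10.3% of all genes. Over animal means there were 4 mural markers higher and 1 satellite cell marker lower, beside 16.3%. Their part in the Heyl values was not tested. No marker of either list was at 0 in every library of a group.

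Hes1, a repressor that is a target of Notch in many tissues and of other pathways as well, stood at 16.7, 11.7 and 19.7 RPM in uninjured WT and at 7.11, 7.48 and 12.8 RPM in uninjured KO. Injured muscle gave 12.8, 12.5 and 12.2 RPM in the WT libraries and 8.48, 10.0 and 10.1 RPM in the KO libraries. At rest 1 KO library reached above the shallow WT library, and after injury all KO libraries lay below all WT libraries. The differences were -0.76 ± 0.36 at rest (SE; limma adjusted p = 0.378) and -0.37 ± 0.16 after injury (limma adjusted p = 0.515). Over animal means the difference was -0.56 ± 0.23 (limma unadjusted p = 0.0356, adjusted p = 0.268). Hes1 thus had the opposite sign to Heyl in each of these comparisons, and neither passed the adjusted threshold.

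Hey1, a target known from endothelial and satellite cells, stood at 4.99, 3.19 and 9.36 RPM in uninjured WT and at 3.42, 9.52 and 4.26 RPM in uninjured KO. In injured muscle the WT values were 6.08, 2.51 and 7.12 RPM, and the KO values 3.8, 8.41 and 4.07 RPM. The groups overlapped widely, and replicate 2 of KO was the highest KO library in both injury states. The differences were -0.03 ± 0.48 at rest (SE; 95% interval -1.11 to 1.05; limma adjusted p = 0.988) and 0.06 ± 0.40 after injury (95% interval -0.89 to 1.02; limma adjusted p = 0.976). Upper quartile and TMM scaling turned the value at rest to 0.21 and 0.19.

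Injury was compared within each genotype in a fit of all 12 libraries. In WT the 10 genes ranged from -0.34 for Dll1 to 0.59 for Heyl, injured minus uninjured. With limma 0 of the 10 and 0% of all 13337 genes had an adjusted p under 0.05. EdgeR and DESeq2 called 0 of the 10, and their shares of all genes are not given here. Heyl alone of the 10 had an unadjusted p under 0.05 (0.59 ± 0.24, SE; limma adjusted p = 1), beside 1.29% of all genes. It was also the only one of the 10 whose injured and uninjured WT libraries did not overlap, beside 10% of all genes, and it was higher in the injured library of all 3 WT animals, by 0.26, 0.80 and 0.71. With the animal as a replicate block in limma, its unadjusted p was 0.058 and 0 of the 10 were under 0.05.

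In KO the changes with injury ranged from -0.03 for Hey1 to 1.01 for Rbpj, with a median of 0.30 beside 0.29 over all genes. With limma 0 of the 10 and 0% of all genes passed the adjusted threshold. EdgeR and DESeq2 called 0 of the 10, again without a share of all genes. Rbpj had an unadjusted p under 0.05 (1.01 ± 0.44, SE; limma adjusted p = 0.728), beside 3.51% of all genes, and Notch2 gave 0.74 ± 0.37 (limma adjusted p = 0.728). Injured and uninjured KO libraries did not overlap for these 2 genes, both higher after injury, beside 6.74% of all genes.

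The change of Rbpj was 0.49, 2.29 and 0.25 in KO animals 1, 2 and 3, and that of Notch2 was 0.06, 2.12 and 0.05. Most of each mean change thus came from 1 animal. Without uninjured KO replicate 2 the changes were 0.36 for Rbpj and 0.28 for Notch2. In that animal 9 of the 10 genes had a higher value in the injured library, Hey1 being the exception.

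**Figure D3:**
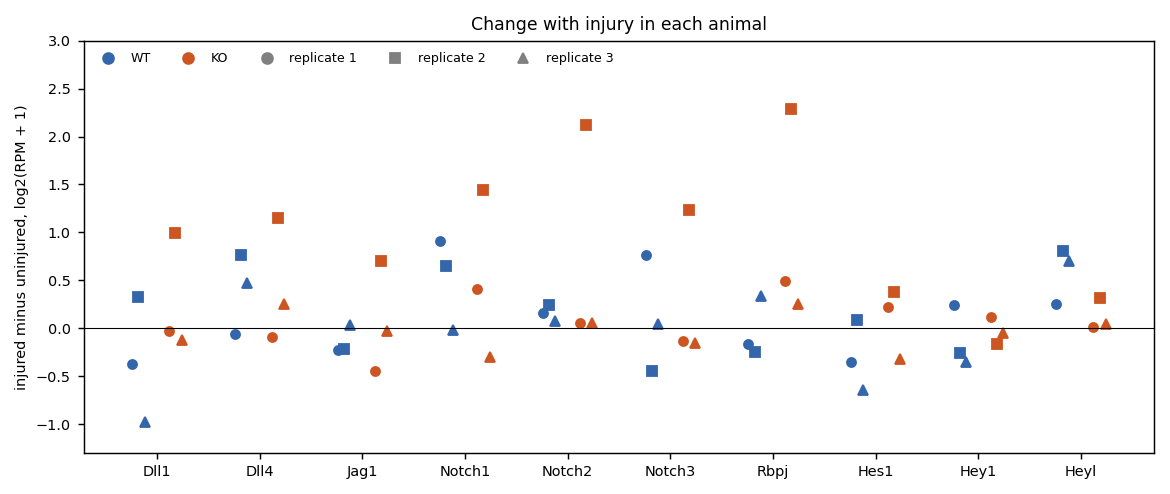
Injured minus uninjured log2(RPM + 1) in each animal, with WT in blue, KO in orange and marker shapes for replicates 1 to 3. KO replicate 2 stands apart for Rbpj at 2.29, Notch2 at 2.12, Notch1 at 1.44 and Notch3 at 1.23, while Heyl is at 0.26 to 0.80 in the WT animals and at 0.01 to 0.31 in the KO animals.

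The difference between the genotypes in the injury change, KO minus WT, ran from -0.47 for Heyl to 1.04 for Rbpj. With limma 0 of the 10 and 0% of all genes passed the adjusted threshold. EdgeR and DESeq2 called 0 of the 10, and their shares of all genes are not given here. In limma 0 of the 10 had an unadjusted p under 0.05, beside 1.56% of all genes. For Heyl the 95% interval was -1.20 to 0.27 and for Rbpj -0.30 to 2.37, and the adjusted p was 0.9999 for both in limma. Without uninjured KO replicate 2 the value for Rbpj was 0.38. The median over the 10 genes and that over all genes were both 0.20.

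The order of the 4 group means differed between genes. For Heyl it was uninjured WT, injured WT, uninjured KO and injured KO from low to high, and only the last 2 neighbours had overlapping ranges. For Hes1 and Dll1 it was uninjured KO, injured KO, injured WT and uninjured WT, and only the middle pair did not overlap. For Rbpj the order was uninjured KO, injured KO, injured WT and uninjured WT, and the last 3 overlapped as neighbours. For Notch2 it was uninjured KO, injured KO, uninjured WT and injured WT, again with only the lowest pair apart. For Notch1, Notch3, Dll4, Jag1 and Hey1 every pair of neighbours overlapped.

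How the genes varied with one another over the 12 libraries is given as a description, since the libraries share groups, animals and differences in depth. Notch2 and Rbpj had the highest Pearson correlation of log2(RPM + 1), at 0.92, which was 0.62 without uninjured KO replicate 2. Dll1 and Hes1 were at 0.84 (0.81 without that library) and Dll4 and Heyl at 0.80 (0.80 without it). Uninjured WT replicate 2 was the lowest library for both Dll4 and Heyl, and injured KO replicate 2 the highest for both. Their correlation without those libraries was not computed. The lowest value was -0.58, between Hes1 and Heyl. Receptors and targets thus did not vary as 1 block. The 3 targets were at -0.58 (Hes1 and Heyl), 0.083 (Hey1 and Heyl) and 0.17 (Hes1 and Hey1), the last being 0.45 without uninjured KO replicate 2.

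**Figure D4:**
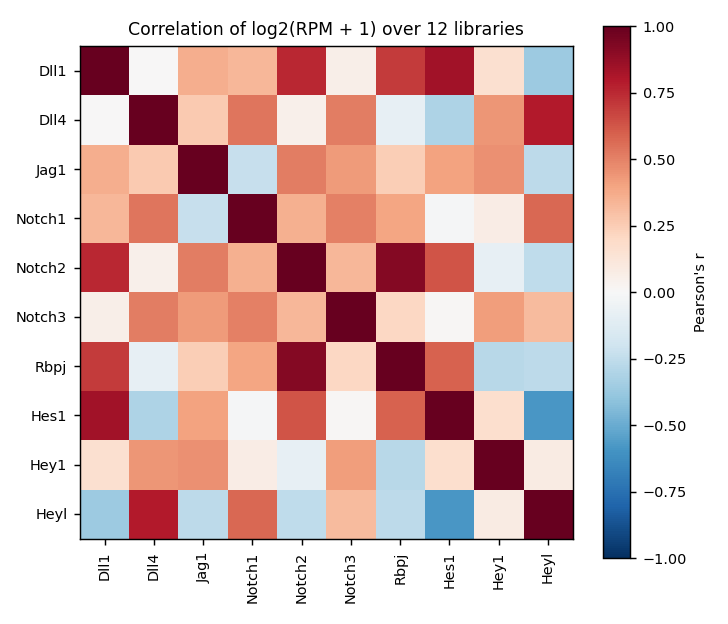
Pearson correlation of log2(RPM + 1) between the 10 genes over the 12 libraries, from blue at -1 to red at 1. Notch2, Rbpj, Dll1 and Hes1 form the block of positive values, 0.59 to 0.92 (0.40 to 0.81 without uninjured KO replicate 2), and Dll4 with Heyl, at 0.80, stands outside it.

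Genes most like each member over the 12 libraries were sought among 9173 genes with a mean of at least 5 RPM. Jag1 followed Cd248, Pcolce and Mfap5 at 0.97 each, genes of stromal cells and extracellular matrix. Dll4 followed Fam171a1, Itpripl1 and Aplnr at 0.93 each. Notch3 followed Ltbp4 at 0.90, a binding protein of latent TGF-beta, then Emp2 and Mau2. Notch2 followed Acap2 at 0.99 (0.97 without uninjured KO replicate 2) and then Dopey2 and Setdb1. Rbpj followed Ggact at 0.99, then Mettl23 and Gmfb, and the first of these was at 0.89 without that library. Heyl followed Bcr and Abi2 at 0.92 each. Jag1, Dll4, Notch3 and Heyl were highest of the 12 libraries in injured KO replicate 2. Likeness without that library was not computed. The leading genes for the others were Tgfbrap1 for Notch1 (0.96), Rab11a for Dll1 (0.94), Eny2 for Hes1 (0.93) and Clip2 for Hey1 (0.95).

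The rest of the pathway was described from lists of 92 further genes, 74 to 77 of which were expressed highly enough to be tested. They hold other ligands and receptors, enzymes that ready ligands and receptors, the cutting enzymes, partners of Rbpj in the nucleus, inhibitors and other targets. With limma and with edgeR 0 of them passed the adjusted threshold in any comparison. DESeq2 called 2 of 74 at rest (Bcl6 and Epn1), 2 of 75 after injury (Bcl6 and Cdkn1a) and 3 of 77 over animals (Bcl6, Cdkn1a and Furin), beside 5.32%, 3.38% and 4.74% of all genes. Without injured KO replicate 2, limma called 11 of 75 after injury, beside 19.0% of all genes. In uninjured muscle 1 had an unadjusted p under 0.05 with a higher value in KO and 5 with a lower value, beside 14.2% of all genes, and the median over the 74 tested was -0.21, beside -0.18 over all genes. After injury the counts were 5 higher and 1 lower of 75 tested, beside 10.3% of all genes, with a median of 0.08 beside 0.01.

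Bcl6, a repressor that displaces Notch coactivators at some targets, had the lowest adjusted p of the lists in uninjured muscle. It stood at 89.7, 78.7 and 98.1 RPM in uninjured WT and at 23.7, 20.3 and 52.0 RPM in uninjured KO. The injured WT libraries held 86.7, 89.7 and 82.9 RPM and the injured KO libraries 24.2, 51.8 and 47.6 RPM. All 6 KO libraries lay below all 6 WT libraries, and the share of all genes separated in this way over both states was not counted. The difference was -1.56 ± 0.36 at rest (SE; limma adjusted p = 0.116), -1.12 ± 0.29 after injury (limma adjusted p = 0.279) and -1.34 ± 0.27 over animal means (limma adjusted p = 0.0589). DESeq2 on the recovered reads gave -1.34, -1.07 and -1.17, with adjusted p of 0.00148, 0.0486 and 0.00419. In limma without injured KO replicate 2 the difference after injury was -1.32 (adjusted p = 0.0183), in a fit that called 19.0% of all genes.

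Among the nuclear partners of Rbpj, 7 of 8 tested had a lower mean log2 value in uninjured KO, with a median of -0.54. Without uninjured KO replicate 2 it was 5 of 8, with a median of -0.28, and Snw1, a partner in that complex, changed sign from -0.16 to 0.63. The acetyltransferases Ep300 and Kat2a were at -0.92 and -0.87 (limma adjusted p = 0.346 and 0.273). The deacetylase Hdac1, of the corepressor list, was at -1.21 (limma adjusted p = 0.230), and Ccnc, a cyclin named for turnover of the Notch intracellular part, was at -0.98 (limma adjusted p = 0.295). Epn1, an adaptor for the uptake of bound ligand, was at 0.86 (limma adjusted p = 0.177). None of these 5 passed the adjusted threshold in limma, and Epn1 alone did in DESeq2 (1.09, adjusted p = 0.00305).

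After injury the fringe enzymes, which add sugars to Notch receptors and alter their choice of ligand, were represented by Mfng at 1.14 (limma adjusted p = 0.357) and Lfng at 0.65 (limma adjusted p = 0.468). The list of 6 sugar-adding and processing enzymes that holds them, with Rfng, Pofut1, Poglut1 and the protease Furin, had all 6 higher in mean in injured KO, with a median of 0.37. Without injured KO replicate 2 it was 5 of 6, with a median of 0.27. Both Mfng and Lfng had their highest value of the 12 libraries in injured KO replicate 2, at 16.2 and 6.97 RPM, the library with the high endothelial sum. Without that library they were at 0.95 and 0.41 (limma adjusted p = 0.0927 and 0.196). Cdkn1a, a cell cycle inhibitor, was at 0.80 (limma adjusted p = 0.251, DESeq2 adjusted p = 0.00453). Without injured KO replicate 2 it was at 0.82 (limma adjusted p = 0.0292), in a fit that called 19.0% of all genes. The ligand-like genes Dlk1 and Nov were at 0.72 and 0.45 (limma adjusted p = 0.423 and 0.481). With injury in KO, the sheddases Adam10 and Adam17 were at 1.33 and 0.84, Aph1b of the gamma-secretase complex at 0.88 and Id2 at 0.99, each with a limma adjusted p of 0.728. Adam10 stood at 12.8, 1.89 and 18.5 RPM in uninjured KO, so uninjured KO replicate 2 was low here too.

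Myf6 binding near the genes was read from the authors' list of 12898 peaks, whose fold over background had a median of 7.68. Positions are those of the peak list, and gene spans are RefSeq's for GRCm38.p6. A peak summit lay in the gene or within 10 kb of it for 6 of the 10 genes, Notch1, Notch2, Dll4, Rbpj, Hes1 and Heyl, beside 35.4% of 12751 tested genes with a position. With a fold of at least 10 these were 5 of the 10, beside 12.7%. Within 2 kb there were 3 of the 10, beside 27.5%, so the count depends on the window. With 1 ChIP library there is no replicate check of any peak.

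The strongest of these peaks lay inside Notch1, at chr2:26487744-26488007, with a fold of 23.7, above 99.3% of all peaks in the list. Further peaks inside Notch1 lay at chr2:26485207-26485535 and chr2:26458954-26459095, with folds of 8.30 and 8.70. Rbpj held a peak at chr5:53557655-53557862 with a fold of 17.4, whose summit lay 1988 bp inside the low end of its span, where the gene begins, and one at chr5:53605556-53605753 with a fold of 10.1. Neither is near the promoter printed above. Notch2 held peaks at chr3:98025982-98026167 and chr3:98024384-98024510, with folds of 11.5 and 5.22.

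For the targets and the remaining ligand with a peak, all lay outside the gene. Heyl had peaks with summits 7270 and 5133 bp from its span, with folds of 10.1 and 7.42, Hes1 one at 9676 bp with a fold of 13.5, and Dll4 one at 7319 bp with a fold of 8.69. For Jag1, Dll1 and Notch3 the nearest summits lay at 68053, 14290 and 45363 bp. Hey1 had none within 100 kb. The peaks come from cultured myotubes and the RNA from whole muscle, and whether a peak bears on a level was not tested.

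**Figure D5:**
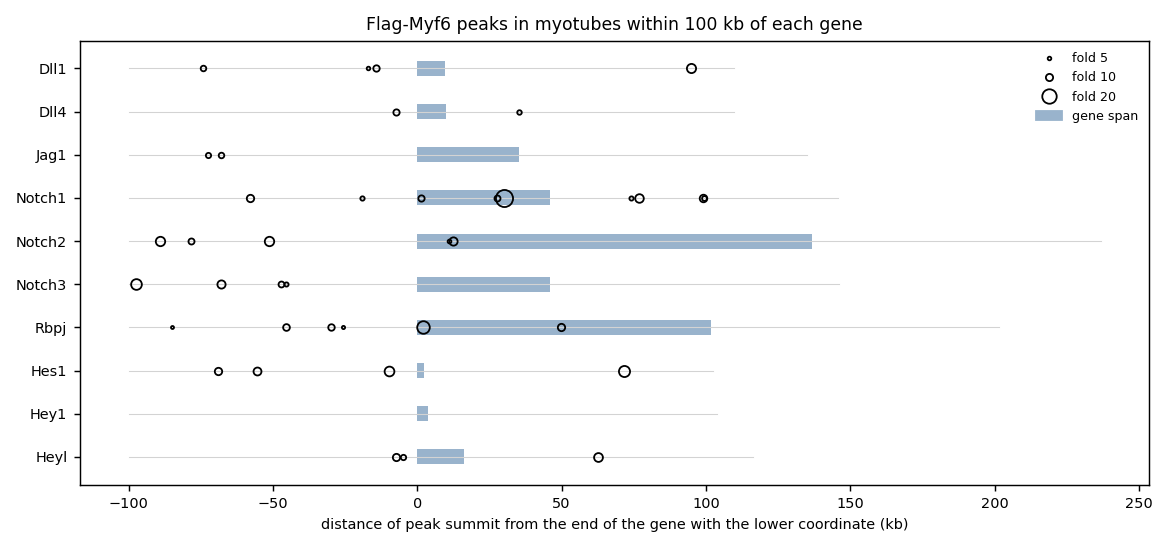
Summits of the authors' Flag-Myf6 peaks within 100 kb of each gene, as distance in kb from the end of the gene with the lower coordinate; bars are gene spans and circle diameter follows fold enrichment. The peak inside Notch1 has the largest circle, a fold of 23.7, and the row of Hey1 is empty.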

How the data were processed

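RNA was extracted with Trizol and made into libraries with the TruSeq RNA v2 kit, per the labels' protocols. For uninjured and for injured muscle the authors deposited a table with RPM values of 49585 genes. Beside these stand the authors' own log2 ratio of WT over KO with its error, and a p-value with its q-value. The submitters' processing notes list HISAT2 2.1.0, featureCounts, SAMtools, DESeq2, Bowtie 1.1.0 and MACS2 2.1.0.20140616 and the builds mm10 and GRCm38.p5, with no roles given. Strand use and the handling of reads with several matches are not given in the sources used here. The deposited peak list was made by MACS2 with a q cutoff of 0.05 and reads extended to 127 bp, per the file headers. It gives each peak's pileup signal, its fold enrichment as a ratio over background, and its p-value and q-value as −log10, per the file headers.

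RPM values were whole multiples of 1 read for 100% of the values tested (within 0.1 read), so whole reads and library totals were recovered. A floor of 3 reads was 0.0607 to 1.60 RPM and covers counting error only. The test was limma 3.58.1 in R 4.3.3, with a mean-variance trend, on log2(RPM + 1) over genes reaching 1 RPM in 3 or more fitted libraries. It was two-sided, with Benjamini-Hochberg adjustment over all genes tested and a threshold of 0.05. Fold changes are on that scale and understate those of low genes. KO against WT was fitted on 6 libraries each, and the injury comparisons and their difference on all 12. P-values measure the spread between these libraries, or animals where the number in the labels is read as the animal.

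Alternatives were upper quartile, TMM and non-mitochondrial scaling, a pseudocount of 0.1, other filters, edgeR 4.0.16 and DESeq2 1.42.0 on the recovered reads, a replicate block, all 12 libraries in 1 fit, the authors' q-values, other peak windows and each library left out. Correlations without uninjured KO replicate 2 and list counts without single libraries were added after seeing the data. The fits were tested on simulated data. Members, pathway lists and marker lists were chosen with earlier results of these data known. All 10 members were named in every comparison. From the pathway lists, genes with an adjusted p under 0.05 and the 6 with the largest change among those with an unadjusted p under 0.05 were named, and for likeness the 3 genes with the highest correlation were taken per member, of which 1 is not reported here. Peak windows were drawn around the whole gene span and not the gene start as planned, because the tables used give no strand for some genes. For KO against WT, same-numbered libraries come from different animals and their deviations did not all correlate above 0.1 (correlations of 0.03, 0.26 and 0.38 at rest and -0.47, -0.61 and -0.30 after injury). Within a genotype the numbers are read as naming the same animal, and those correlations were 0.28, -0.23 and 0.02 in WT and 0.02, 0.50 and 0.63 in KO. Proteins, exons and promoters of the 3 genes with no window in the RefSeq table were not analysed here.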

Additional observations from a re-analysis of the deposited data

How the results depend on the processing

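Of 1000 values of the 10 genes over all alternatives, 916 kept their direction and their side of the threshold. Another 83 changed sign, none of them past the adjusted threshold, and 1 passed it (Notch2 after injury without injured KO replicate 2, -0.62). That fit called 19.0% of all genes. The other filters, the replicate block and the fit of all 12 libraries leave the log2 difference as it was. Their direction could not change, so the values that kept it include some that were fixed beforehand. The count of the 10 genes called stayed at 0 under every alternative in the other 5 comparisons, and ranged from 0 to 1 over the libraries left out after injury. Dll1, Dll4, Notch1, Notch2, Rbpj, Hes1 and Heyl kept their sign in every alternative of the 3 KO against WT comparisons, though Rbpj after injury came to -0.00037 without injured WT replicate 3. Hey1 at rest turned positive with upper quartile scaling (0.21), TMM (0.19), edgeR (0.29), DESeq2 (0.33) and the authors' values (0.33), and Notch3 at rest turned to -0.086 without mitochondrial genes. With injury in KO, Hey1 was 0.0057 in that last scaling, and Jag1, Hes1 and Heyl turned negative under upper quartile scaling, TMM, edgeR and DESeq2, between -0.28 and -0.13. The causes were not tested.

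Leaving out each library in turn gave ranges of -0.081 to 0.16 for Notch3 and -0.40 to 0.32 for Hey1 at rest. After injury they were -0.11 to 0.53 for Notch3, -0.53 to 0.0089 for Jag1 and -0.31 to 0.30 for Hey1. With injury they were -0.78 to 0.024 for Dll1 in WT and -0.34 to 0.34 for Hey1 in KO. Peaks lay near 3 of the 10 genes with a 2 kb window, 8 with 50 kb and 9 with 100 kb. The shares of all 12751 tested genes with a position were 27.5%, 60.0% and 75.5%. Over all genes, limma at rest called 35, 156 with upper quartile scaling, 107 with TMM, 199 without mitochondrial genes and 663 by DESeq2. In the smallest library differences of low genes rest on few reads.

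With the replicate block 0 of the 10 genes were called in any comparison. It pairs KO with WT only by number, the animals being different, and moved the count over all genes at rest from 35 to 752 and after injury from 34 to 0. At rest not every library correlated best with its own number. Rbpj had an adjusted p of 0.0990 and Notch2 of 0.108 at rest in limma with the block, each the lowest of its range over the alternatives (up to 0.983 and 0.986). For injury, where the number is read as naming the animal, the block changed no call at the adjusted threshold.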

Other observations

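Several textbook Notch genes were low in whole muscle, and Hes5 and Hey2 were too low to be tested. Hes5 was at 0 in 8 of the 12 libraries and reached at most 0.150 RPM. Hey2 lay between 0.0988 and 1.13 RPM, and Nrarp, a feedback inhibitor of Notch, between 0 and 1.82 RPM, too low to be tested at rest only. Notch4, the endothelial receptor and itself counted among the endothelial markers, ranged from 9.51 to 22.8 RPM in 11 libraries. It was 40.2 RPM in injured KO replicate 2, the library with the highest endothelial sum. Jag2 was highest in the same library, at 21.2 RPM, against 6.38 to 16.0 RPM in the others.

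Other cell type markers differed by genotype without passing limma's test with all libraries in the fit. All 6 adipocyte markers had a higher mean in KO than in WT in both injury states, with medians of 1.49 and 1.79 on the log2 scale. All 9 macrophage and leukocyte markers tested had a lower mean in KO in both states, with medians of -0.998 and -0.41. Of the 10 fibroblast markers, 8 had a lower mean in KO in each state and 7 in both. With limma and all libraries, 0 markers of these lists passed the adjusted threshold. At an unadjusted p under 0.05 in limma there were 4 adipocyte, 5 macrophage and 2 fibroblast markers at rest, beside 14.2% of all genes. After injury there were 3, 3 and 1, beside 10.3%. Without injured KO replicate 2, limma called 4 of 6 adipocyte, 2 of 9 macrophage and 2 of 10 fibroblast markers after injury, beside 19.0% of all genes. DESeq2 on the recovered reads called 4 of the adipocyte markers at rest, among them Lep and Plin1, and Plin1 and Pdgfra after injury. The shares of all genes called were 5.32% and 3.38%. Over animals it called Lep, Plin1, Dcn, Pdgfra, Lyz2 and Mrc1 of these lists, beside 4.74% of all genes. EdgeR called only Lep, at rest. Their part in the values of the Notch genes was not tested.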
